A study of Macaca mulatta with 24 samples.

Results

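Gene expression in the jejunum of rhesus macaques was compared between day 7 and day 4 after total-body irradiation (TBI) with 6.7 Gy, 4 arrays against 4, over all probes that are not array controls. The samples to be compared were chosen by their titles, and the 8 arrays are 8 of the 24 in the series. The animals were young-adult males that received a single uniform dose of cobalt-60 gamma radiation, and RNA from a piece of jejunum of about 3 cm, as whole gut tissue, was hybridized to 1 array per animal without pooling. Another 4 arrays, labelled as day 4 with a dose of 0 Gy, held jejunum of sham-irradiated animals and served here to tell a return to the unirradiated level from a new change. The day 4 and day 7 samples came from different animals, so no animal was followed over time, and the controls share the day of the day 4 group and not that of the day 7 group. The other arrays entered the estimate of the spread, and the 8 arrays of days 4 and 7 after 7.4 Gy gave the same comparison of days at a second dose.

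The lining of the jejunum is renewed from stem cells at the base of the crypts, whose daughters divide, move up the villus and mature into absorptive, mucus-secreting and hormone-producing cells. Ionizing radiation damages DNA in the dividing cells and switches on genes driven by p53, which halts division or kills the cell, while chemokines and adhesion molecules bring leukocytes into the tissue. As surviving crypt cells divide, the villus is supplied again with mature cells, which carry the digestive, transport and detoxifying enzymes of the small bowel. RNA was taken from whole tissue, so fewer cells of a type and less RNA per cell cannot be told apart.

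Levels are log2 signal minus the 75th percentile of the array, and a change of 1 is 2-fold. Probes were tested if, in 1 or more groups, each array read them well above background. The number of arrays limits the precision. The percentage of probes well above background was 49.6% to 87.6% on the day 4 arrays, 62.6% to 85.7% on the day 7 arrays and 51.2% to 87.7% on the control arrays. The day 7 arrays lay on slides 1 to 4 and the day 4 arrays on slides 5, 6, 1 and 2, so 2 slides held an array of each group. Of the 2 scan days, all day 7 arrays and day 4 replicates 3 and 4 fell on the first. Every day 4 array was in position 1 or 2 of its slide and every day 7 array in position 3, so position and day cannot be told apart.

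Of 28168 probes tested, 436 (1.55%) differed between the days by 2-fold or more at an adjusted p under 0.05 in limma. There were 224 higher on day 7 (0.795%) and 212 lower (0.753%), and the median change was 1.27 among the first and -1.22 among the second, against 0.06 over all probes tested. The called probes with a symbol named 245 genes, 117 higher and 128 lower. In 388 of the 436 the levels of the 4 day 7 arrays and the 4 day 4 arrays did not overlap, as was so for 12.7% of all probes tested. The number called ran from 169 without day 7 replicate 2 to 741 without day 7 replicate 4, and was 189 without day 4 replicate 3, 263 without day 4 replicate 2 and 233 without day 7 replicate 1. It was 220 within the first scan day, 928 with slide as a fixed block and 24 by the methods' t-test.

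Against the control mean, 214 of the 436 (49.1%) were at least 2-fold away on day 4 and less than 2-fold away on day 7, 108 of them higher on day 7 and 106 lower. A further 187 (42.9%) were less than 2-fold from control on both days. As the days differed by 2-fold or more, these lay on opposite sides of control on the 2 days. On day 7, 22 probes (20 higher than on day 4, and 2 lower, for CCR7 and a probe with no symbol) were at least 2-fold from control without having been so on day 4, and 3 of the 22 passed the test of day 7 against control. Another 10, all lower on day 7, were still at least 2-fold above control by their means, and 4 of these passed the test of day 7 against control. Of the 214, 177 passed the test of day 4 against control. A last 3 were at least 2-fold from control on both days, on opposite sides. Of all probes tested, 566 (2.01%) differed from control on day 4 and 48 (0.17%) on day 7 by the same limits. The 3 comparisons share arrays, so these counts are a description.

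**Figure D1:**
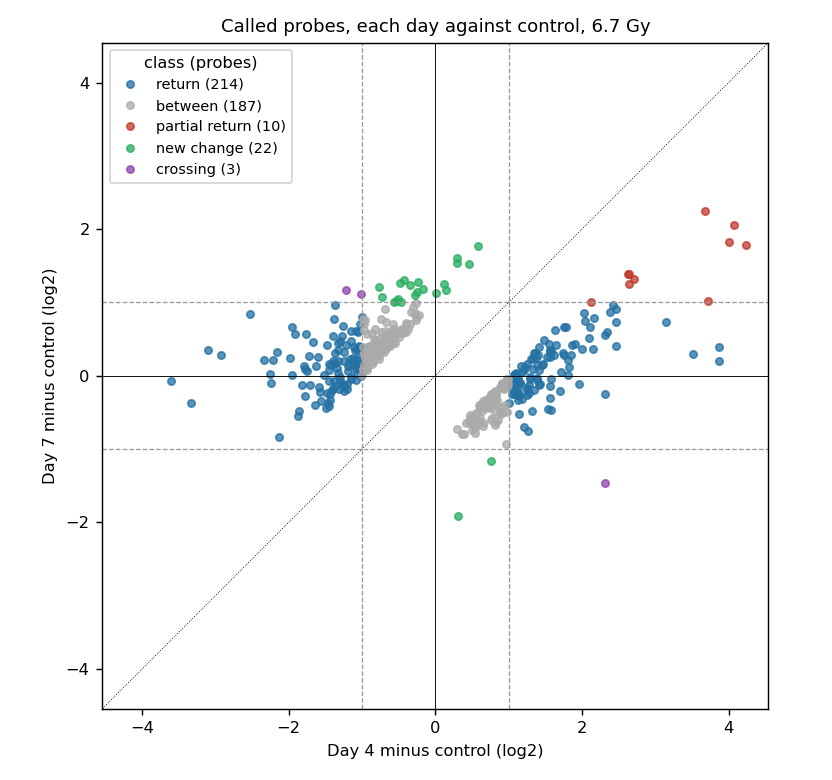
Change from control (log2) of the 436 called probes, day 4 on the x axis and day 7 on the y axis, 6.7 Gy, group means of 4 arrays. Dashed lines mark 2-fold, the dotted line marks equal values, and colours mark the classes. The 214 probes in blue were at least 2-fold from control on day 4 and inside that limit on day 7; the empty band along the dotted line follows from the choice of called probes.

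Among the genes with large rises were CYP2D6, S100G, GSTA1 and FXYD3. The 8 genes given here had large rises, at 1 probe per gene, among called probes that were well above background on all 8 arrays, with no overlap between the groups. CYP2D6, a drug-oxidizing cytochrome P450, had levels of -1.25, 0.58, -1.12 and -1.61 on day 4 and 3.75, 3.57, 1.79 and 1.29 on day 7, replicates 1 to 4. Its change was 3.45 (SE 0.86, adjusted p = 0.0281), or 10.9-fold. Every day 7 array was above every day 4 array and the controls, at 3.09, 2.64, 1.51 and 1.77, lay within the range of day 7. Probes of this family may also detect close relatives. S100G, the calcium-binding protein that carries calcium across the absorptive cell, stood at 4.93, 6.02, 5.48 and 4.62 on day 4 and 8.71, 8.95, 7.62 and 7.61 on day 7. It rose by 2.96 (SE 0.58, adjusted p = 0.00832), with controls at 9.07, 7.85, 8.23 and 9.22. The day 4 arrays were all below the lowest control, and the day 7 arrays overlapped the controls. GSTA1, which conjugates glutathione to lipid and drug products, read 4.43, 3.75, 4.00 and 4.08 on day 4, 6.47, 6.54, 6.22 and 5.92 on day 7 and 6.27, 6.23, 6.02 and 5.64 in controls. It rose by 2.22 (SE 0.32, adjusted p = 0.00148), its spread within a group was small, and this probe stayed called in each of the 27 settings run for it. A second, brighter GSTA1 probe, the one used with 1 probe per gene, changed by 2.09 and missed the limit (adjusted p = 0.058), and probes of this gene family may detect close relatives.

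FXYD3, a regulator of the sodium pump, rose by 1.81 (adjusted p = 0.00472) and its day 4 levels, 0.41, 0.23, 0.48 and 0.58, were below all controls and all day 7 arrays. DNASE1, a secreted nuclease, rose by 1.93 (adjusted p = 0.0312) from 2.59, 0.31, 2.34 and 1.13 to 3.57, 3.88, 3.94 and 2.72, and the day 4 arrays were far apart. The other 3 of the 8 carry only locus names. LOC706971, annotated as similar to caspase recruitment domain-containing protein 17, rose by 2.49 (adjusted p = 0.0161). LOC711061 rose by 2.33 (adjusted p = 0.0174) and LOC711796, annotated as similar to a thioesterase, by 2.12 (adjusted p = 0.0376). Another LOC706971 probe rose by 2.16, and the last of 3 changed by -0.03 and was not called. CYP2D6 was called in 3 of the 8 fits that leave out 1 array, DNASE1 and LOC711796 in 3 each, LOC706971 in 4 and LOC711061 in 6, with the direction kept in all of them. Within the first scan day, which leaves 2 day 4 arrays, GSTA1 alone of the 8 kept the call. DNASE1 lost it with slide as a fixed block (adjusted p = 0.0543), and with a common floor for dim signals LOC711796 changed by 1.59 and lost it.

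Large falls were seen in chemokines, a stress cytokine and stromal and neuronal genes. The 8 genes with large falls were chosen as those with large rises were, so lack of overlap between the days was a condition. CXCL1, a chemokine that draws neutrophils, stood at 0.79, -2.28, -0.30 and -2.33 on day 4 and at -5.12, -4.29, -4.77 and -3.89 on day 7, and fell by 3.48 (SE 0.64, adjusted p = 0.00543). Its controls read -5.06, -4.47, -4.72 and -5.37, and 1 of those 4 was not well above background. Another, brighter CXCL1 probe changed by -2.26 and was not called (adjusted p = 0.088). CCL19, which guides T cells and dendritic cells through CCR7, fell by 2.71 (adjusted p = 0.0314), from -0.29, 1.52, 2.15 and 0.80 to -3.03, -1.88, -1.37 and -0.36, with controls at -2.21, -2.79, -3.15 and -2.56. Its day 4 arrays were all above all day 7 arrays, with the nearest pair at -0.29 and -0.36. CCL19 was called in 2 of 8 fits with 1 array left out. DARC, now named ACKR1, a chemokine-binding receptor of venules, read 0.56, 1.30, 1.46 and 1.48 on day 4 and -0.81, -1.32, -0.80 and -0.45 on day 7. It fell by 2.05 (SE 0.23, adjusted p = 0.000608) and stayed called without each of the 8 arrays. LCN15, a lipocalin, fell by 2.02 (adjusted p = 0.0287) from 0.61, -1.29, 0.14 and 0.72 to -2.49, -1.49, -2.01 and -1.90, and stood at -3.42, -3.86, -5.55 and -3.28 in controls, where 3 of 4 arrays were well above background. GREM1, a secreted BMP antagonist, fell by 1.87 (adjusted p = 0.0158), a second probe by 1.71, and the last of 3 changed by -0.15 and was not called. VIP, a neuropeptide of the gut wall, fell by 1.91 (adjusted p = 0.0321), and its levels were -0.35, -0.39, -0.05 and -0.63 on day 4 and -3.68, -3.52, -1.0 and -0.83 on day 7, where 2 arrays lay far below the others. LY6H, of the Ly-6 family of membrane-anchored proteins, fell by 1.79 (adjusted p = 0.0158) from -1.71, -1.32, -1.91 and -1.28 to -3.93, -4.19, -2.37 and -2.91, with controls at -2.82, -2.68, -2.82 and -3.19. LCN15 and VIP were each called in 2 of 8 fits with 1 array left out, GREM1 in 5 and LY6H in 6. With a common floor CXCL1 changed by -1.05 (adjusted p = 0.141) and LY6H by -0.31 (adjusted p = 0.0791) and neither was called, while VIP changed by -1.03 and was. Within the first scan day CCL19, VIP and LY6H lost the call. With slide as a fixed block CCL19 and LCN15 lost it (adjusted p = 0.0605 and 0.079), and with scan day as a fixed block CCL19 and VIP (adjusted p = 0.0549 and 0.0504).

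**Figure D2:**
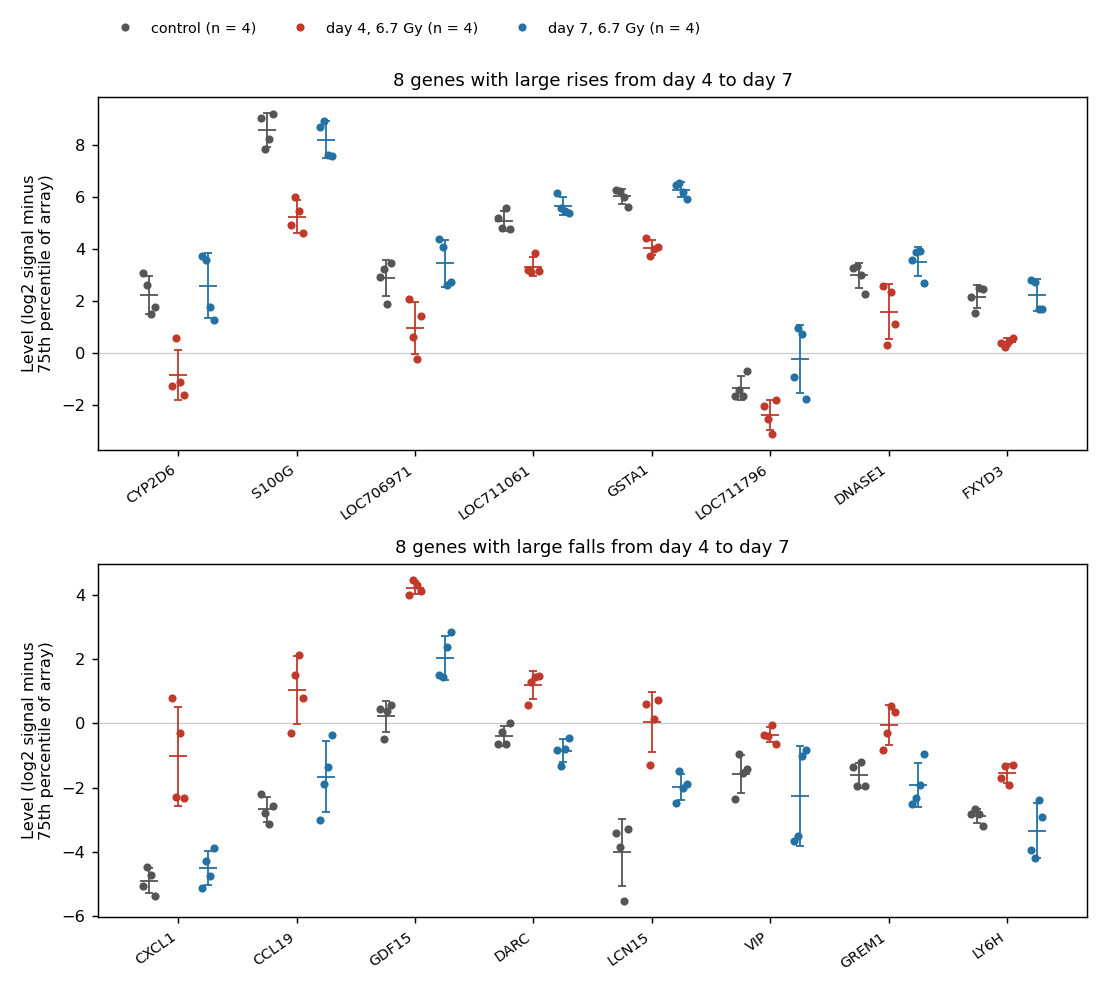
Level (log2 signal minus the 75th percentile of the array) on each of 12 arrays for 8 genes with large rises (top) and 8 with large falls (bottom) from day 4 to day 7 after 6.7 Gy. Points are arrays, horizontal bars means and error bars SD, n = 4 per group. By the choice of genes, the red day 4 points sit below the blue day 7 points in the top panel and above them in the bottom panel. In the top panel most of the blue points overlap the gray controls.

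Of 20 p53 targets tested, 5 were called lower on day 7 and none higher, against 1.72% of all genes called, 0.924% lower and 0.798% higher. The list's median change was -0.30, and that of all genes tested was 0.04. The gene lists were written with earlier results of these data known, so counts of their members are a description. DDB2, a DNA-damage recognition factor, had levels of 1.28, 1.21, 1.50 and 1.61 in controls, 4.35, 4.27, 4.16 and 3.64 on day 4 and 2.51, 2.43, 2.81 and 3.12 on day 7. It fell by 1.39 (SE 0.19, adjusted p = 0.00148) but remained 1.32 above control (adjusted p = 0.00343), the 3 groups not overlapping. GDF15, a stress-induced cytokine, read 0.44, -0.49, 0.37 and 0.59 in controls, 4.01, 4.47, 4.31 and 4.15 on day 4 and 1.50, 1.46, 2.38 and 2.87 on day 7. It fell by 2.18 (SE 0.33, adjusted p = 0.00216) from 4.00 to 1.83 above control, and both differences from control passed the test. EDA2R, a receptor of the TNF receptor family, fell by 1.44 (adjusted p = 0.0104) from 0.77, 0.98, 1.14 and 0.44 to -0.29, -1.59, -0.38 and -0.18, with day 7 replicate 2 low, and stayed 2.24 above control (adjusted p = 0.00114).

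PLK2, a polo-like kinase, and FAS, a death receptor, fell by 1.37 (adjusted p = 0.0118) and 1.00 (adjusted p = 0.022) to less than 2-fold above control. FAS, CDKN1A and MDM2 were named after their values were seen. CDKN1A, the cell-cycle inhibitor p21, changed by -0.66 (adjusted p = 0.0829) and was not called. MDM2, which marks p53 for degradation, had 1 probe that fell by 1.18 (adjusted p = 0.00405) and a brighter one that changed by 0.05, and by the brighter probe it did not count as called. The number called was 3 without day 4 replicate 3, 3 without day 7 replicate 2 and 3 within the first scan day. It was 0 by the methods' t-test, and with only the 8 arrays compared EDA2R and PLK2 lost the call. DDB2, GDF15 and EDA2R were called without each of the 8 arrays, and EDA2R lost the call within the first scan day (adjusted p = 0.114).

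Among 18 TNF and NF-kB targets, 5 were called lower and none higher, and 16 changes were below 0, with a median of -0.97. Of all 11902 genes tested, 0.924% were called lower, and 5371 changed by less than 0. IER3, an immediate early gene, had levels of -1.09, -0.70, 0.09 and -0.46 on day 4 and -2.65, -2.13, -1.95 and -1.32 on day 7, and fell by 1.47 (SE 0.27, adjusted p = 0.00502). VCAM1, the endothelial adhesion molecule for lymphocytes and monocytes, read 0.51, 1.08, 1.49 and 0.74 on day 4 and -0.07, -0.13, -0.17 and 0.02 on day 7, and fell by 1.04 (adjusted p = 0.0069). TNFAIP3, an inhibitor of NF-kB signaling, fell by 1.10 (adjusted p = 0.0313), and the chemokines CCL2 and CXCL3 by 1.74 and 1.28 (adjusted p = 0.0351 and 0.0467). Day 4 replicate 3 had the highest level of all 12 arrays for each of these 5 genes. For CCL2 the day 4 and day 7 arrays overlapped. With a common floor CCL2 and CXCL3 changed by -1.09 and -1.16 and were not called (adjusted p = 0.113 and 0.0793), and CXCL3 also lost the call with slide or scan day as a fixed block (adjusted p = 0.0811 and 0.0762). Of the 8 fits with 1 array left out, VCAM1 was called in 6, TNFAIP3 and CCL2 in 3 each and CXCL3 in 1. The number called was 1 without day 4 replicate 3, 2 without day 4 replicate 2, day 4 replicate 4, day 7 replicate 1 or day 7 replicate 2, 3 without day 7 replicate 3 and 8 without day 4 replicate 1. It was 2 without a filter on dim probes, and 0 with only the 8 arrays compared and by the methods' t-test. CXCL8 and CCL20, both neutrophil or lymphocyte attractants, were named after their values were seen, changed by -2.28 and -2.03 and were not called (adjusted p = 0.129 and 0.0891).

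With a median of -0.58, 4 of 23 chemokines were called lower, against 0.924% of all genes, and none higher. Besides CCL19, CCL2 and CXCL3 these included CCL21, another CCR7 ligand, which fell by 1.50 (SE 0.30, adjusted p = 0.00942) from 1.43, 1.99, 0.99 and 1.32 to -0.53, -0.24, -0.24 and 0.72, with controls at 0.13, -0.13, 0.38 and 0.61. Within the first scan day it changed by -1.23 and was not called (adjusted p = 0.0899). Of the chemokines 1 was called without day 4 replicate 3 or 4 or without day 7 replicate 1, 2 or 3, and 6 without day 4 replicate 1. With only the 8 arrays compared and by the methods' t-test all 4 lost the call. Without a filter on dim probes CCL19, CCL2 and CXCL3 lost it. CCR7 itself fell by 1.92 (adjusted p = 0.0257), and was well above background on 3 of 4 arrays of each day. It was called in 3 of 8 fits with 1 array left out, and changed by -1.50 with slide and by -1.67 with scan day as a fixed block, not called in either (adjusted p = 0.0914 and 0.0565). Of 14 T and NK cell genes it was the one called, with a list median of -0.46, and of 20 interferon response genes none was called. FCGR3, a low-affinity IgG receptor placed in the granulocyte list, fell by 1.60 (adjusted p = 0.0147). Of the 5 genes of that list tested, 2 were well above background on all arrays of both days, and FCGR3 itself was so on 3 of 4 day 7 arrays. With normexp background correction CCR7 and FCGR3 changed by -0.87 and -0.83 and were not called, and FCGR3 lost the call within the first scan day (adjusted p = 0.0636). Both genes lay under the common floor of -1.85 on all 8 arrays, so that setting leaves no change for either. No macrophage gene of 11 was called, and 0 to 3 were called lower with 1 array left out. By the adjusted p alone 3 passed (CSF1R, MRC1 and C1QA). Of these C1QA, a complement subunit, changed by -0.85 (adjusted p = 0.0106) and was called in 4 of 27 settings. APOBEC3H, a cytidine deaminase against retroviruses, read -0.03, 0.09, 0.67 and 0.17 on day 4 and -1.34, -0.89, -1.15 and -0.87 on day 7. It fell by 1.29 (SE 0.16, adjusted p = 0.000825), and its brighter probe changed by -0.97, under 2-fold.

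Genes of connective tissue, muscle and nerve had changes below 0. All 17 genes of extracellular matrix and fibroblasts changed by less than 0, with a median of -0.95, and 4 were called. Of all 11902 genes tested, 5371 changed by less than 0 and 0.924% were called lower. FBN1, the microfibril protein fibrillin 1, had levels of 1.09, 1.38, 1.50 and 1.34 on day 4 and 0.70, -0.41, 0.21 and 0.61 on day 7, and fell by 1.05 (adjusted p = 0.00921). VCAN, a matrix proteoglycan, THBS1, a matricellular glycoprotein, and FN1, fibronectin, fell by 1.12, 1.25 and 1.11 (adjusted p = 0.0126, 0.0355 and 0.0368). THBS1 was well above background on 3 of 4 day 4 arrays. With a common floor it changed by -0.06 and FN1 by -1.11, and neither was called (adjusted p = 1 and 0.051), nor was TIMP1 (adjusted p = 0.0541). Another VCAN probe changed by 0.15 and was not called, and 2 of the 4 FN1 probes, at -0.74 and -0.65, were not called (adjusted p = 0.377 and 0.312). FBN1 lost the call within the first scan day (adjusted p = 0.0689), as did FN1. The number called was 0 without day 4 replicate 3, 1 without day 7 replicate 2, 2 without day 4 replicate 2, day 7 replicate 1 or day 7 replicate 3, and 6 without day 7 replicate 4. TIMP1, an inhibitor of matrix metalloproteinases, fell by 1.07 (adjusted p = 0.0395), and A2M, a broad protease inhibitor, by 1.32 (adjusted p = 0.0246), with groups that overlapped. Of the 8 fits with 1 array left out, A2M was called in 3 and TIMP1, THBS1 and FN1 in 2 each, and TIMP1 lost the call within the first scan day (adjusted p = 0.0584). Of 9 enteric neuron and glia genes all were below 0 and 2 were called, among them VIP. Neither was called within the first scan day or without any 1 array other than day 7 replicate 3 or 4.

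None of 8 smooth muscle genes was called, yet all 8 changed by less than 0, from -0.83 to -0.59, with a median of -0.78. With 1 array left out, 0 to 2 of them were called lower. The summed level of the smooth muscle genes, log2 of the sum of their linear values, was 8.64 to 9.14 on day 4, 7.44 to 8.85 on day 7 and 8.37 to 8.85 in controls, and each gene was well above background on all 12 arrays. For the matrix genes it was 6.86 to 7.07, 5.37 to 6.37 and 5.77 to 6.51, and for the neuronal genes 3.55 to 3.70, 2.60 to 3.49 and 3.10 to 3.30. The matrix and neuronal ranges of day 7 lay below those of day 4, the smooth muscle ranges overlapped, and the part of these cells in the results for matrix and neuronal genes was not tested. Endothelial genes had no call among 8, all below 0, and VWF changed by -0.97 (adjusted p = 0.0471).

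**Figure D3:**
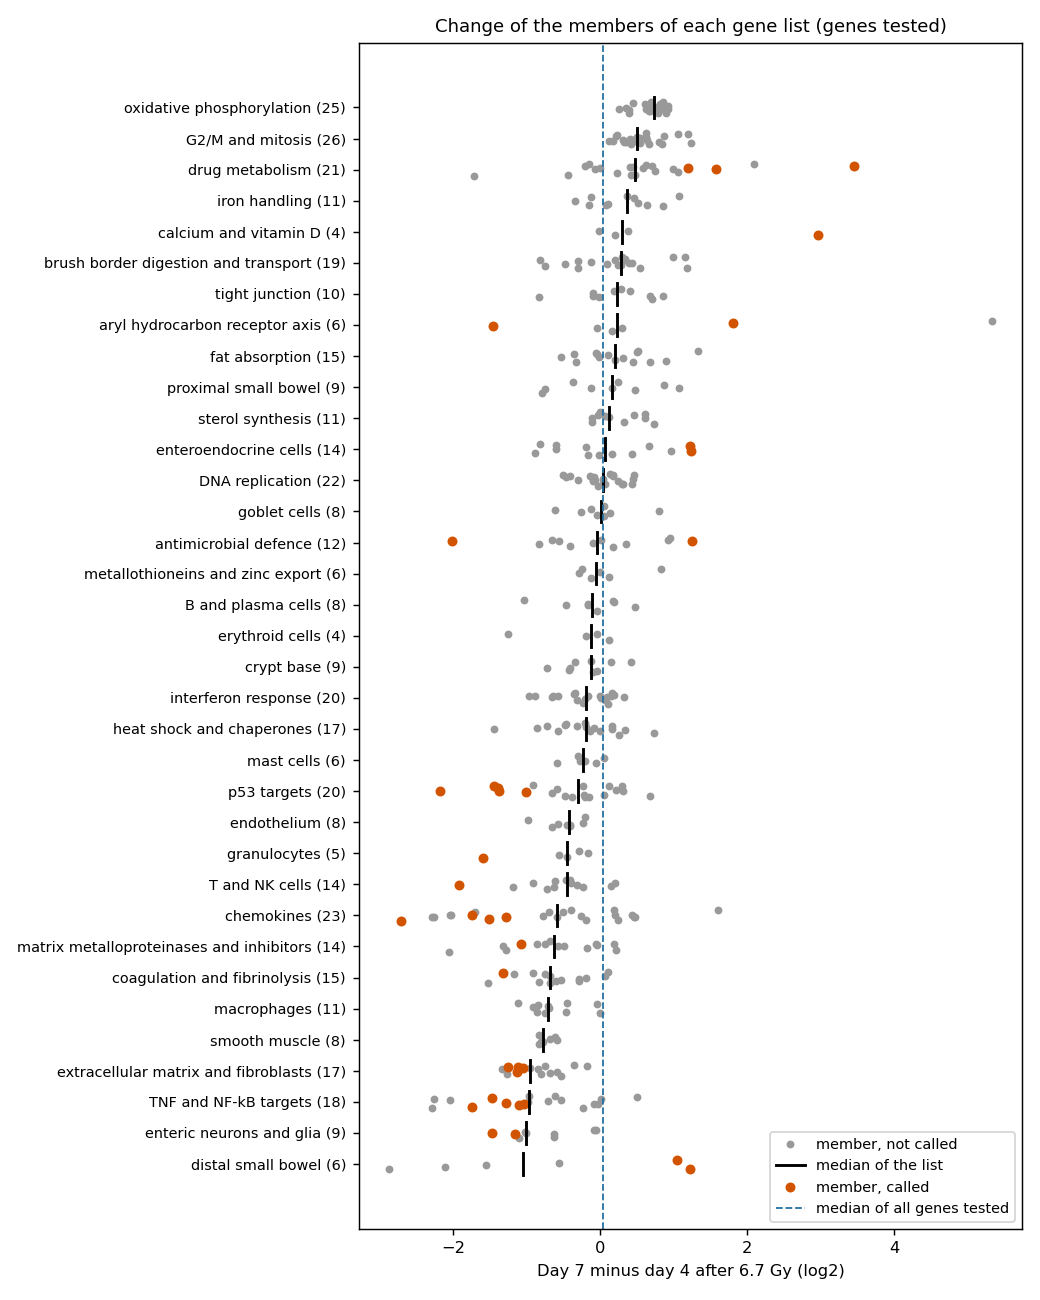
Change from day 4 to day 7 after 6.7 Gy (log2) of each member tested, 1 point per gene, for the gene lists with at least 4 genes tested, ordered by the list median (black bar). Orange points are called genes, and the dashed line is the median of all genes tested, 0.04. Matrix, TNF and NF-kB and neuronal genes lie on the left, and oxidative phosphorylation and G2/M genes on the right.

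All 25 oxidative phosphorylation genes changed by more than 0, from 0.25 to 0.93, with a median of 0.74. None reached 2-fold, so none was called, and 17 passed the adjusted p alone. Of all 11902 genes tested, 6531 changed by more than 0, and 315 of those passed the adjusted p. ATP5B, the catalytic subunit of ATP synthase, read 6.79, 6.35, 6.41 and 6.77 on day 4 and 7.44, 7.48, 7.52 and 7.45 on day 7 (change 0.89, SE 0.13, adjusted p = 0.00148), all day 7 arrays above all controls, at 6.93, 7.00, 7.27 and 7.08. Among called genes, LOC723442, annotated as similar to the flavoprotein subunit of succinate dehydrogenase, rose by 1.28 (SE 0.17, adjusted p = 0.00133), and its other 2 probes changed by 0.84 and 0.96, under 2-fold. IDH1, which makes NADPH in the cytosol, had levels of 3.40, 3.55, 3.04 and 2.90 on day 4, 5.10, 5.24, 4.61 and 4.65 on day 7 and 4.64, 4.82, 4.33 and 4.57 in controls, and rose by 1.68 (SE 0.21, adjusted p = 0.000791). APRT, which salvages adenine, rose by 1.22 (adjusted p = 0.00152) and MGST3, a microsomal glutathione transferase, by 1.10 (adjusted p = 0.00148). The brighter APRT probe changed by 0.98, under 2-fold.

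With a median of 0.47, 3 of 21 drug metabolism genes were called higher, against 0.798% of all genes, and none lower. Besides CYP2D6 these were SULT1B1, a sulfotransferase, and UGT1A1, which glucuronidates bilirubin and rose by 1.20 (adjusted p = 0.0256), though its probe may detect related transcripts of the same locus. There was 1 call without day 4 replicate 3, day 4 replicate 4 or day 7 replicate 2. NQO1, a quinone reductase, had levels of 1.84, 2.15, 0.71 and 1.74 in controls, 1.36, 1.10, 0.42 and 0.63 on day 4 and 3.05, 2.85, 2.42 and 2.42 on day 7. It rose by 1.81 (SE 0.28, adjusted p = 0.00242), by all 3 of its probes. Every day 7 array was above every control, and the difference of 1.08 from control missed the threshold (adjusted p = 0.13). CYP1B1, of the same aryl hydrocarbon receptor list, fell by 1.46 (adjusted p = 0.0315), was called in 3 of 8 fits with 1 array left out and lost the call within the first scan day (adjusted p = 0.127). UGT1A1 was called in 4 of those 8 fits. CYP1A1, an enzyme induced through that receptor and named after its values were seen, had the largest change of all genes tested. It read -1.69, -1.91, -3.22 and -3.05 on day 4 and 1.78, 3.44, 5.64 and 0.62 on day 7, a change of 5.34 (SE 1.57) that missed the threshold (adjusted p = 0.0573), with no overlap and controls at 6.04, 5.66, 3.54 and 6.53.

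CPS1, the first enzyme of the urea cycle, and SULT1B1 had levels on day 7 above those of both other groups. CPS1 read 2.96, 3.01, 2.48 and 2.40 in controls, 3.29, 2.99, 2.72 and 3.03 on day 4 and 4.19, 4.25, 4.30 and 4.53 on day 7. It rose by 1.31 (SE 0.19, adjusted p = 0.00148) and stood 1.60 above control (adjusted p = 0.000212), with every day 7 array above the other 8. SULT1B1 read -0.70, -1.01, -0.95 and -0.78 in controls, -0.82, -1.25, -1.05 and -1.67 on day 4 and 0.52, 0.31, 0.35 and 0.32 on day 7, and rose by 1.57 (SE 0.26, adjusted p = 0.00343). Its difference of 1.23 from control missed the threshold (adjusted p = 0.0555). CPS1 was called in each of the 27 settings run for this probe. GCG, the precursor of glucagon-like peptides, rose by 1.24 (adjusted p = 0.049) and lost the call in each of the 8 fits with 1 array left out, and its difference of 1.54 from control missed the threshold (adjusted p = 0.0759). Of the 14 enteroendocrine genes tested, 7 changed by more than 0 and 7 by less, with a median of 0.07.

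**Figure D4:**
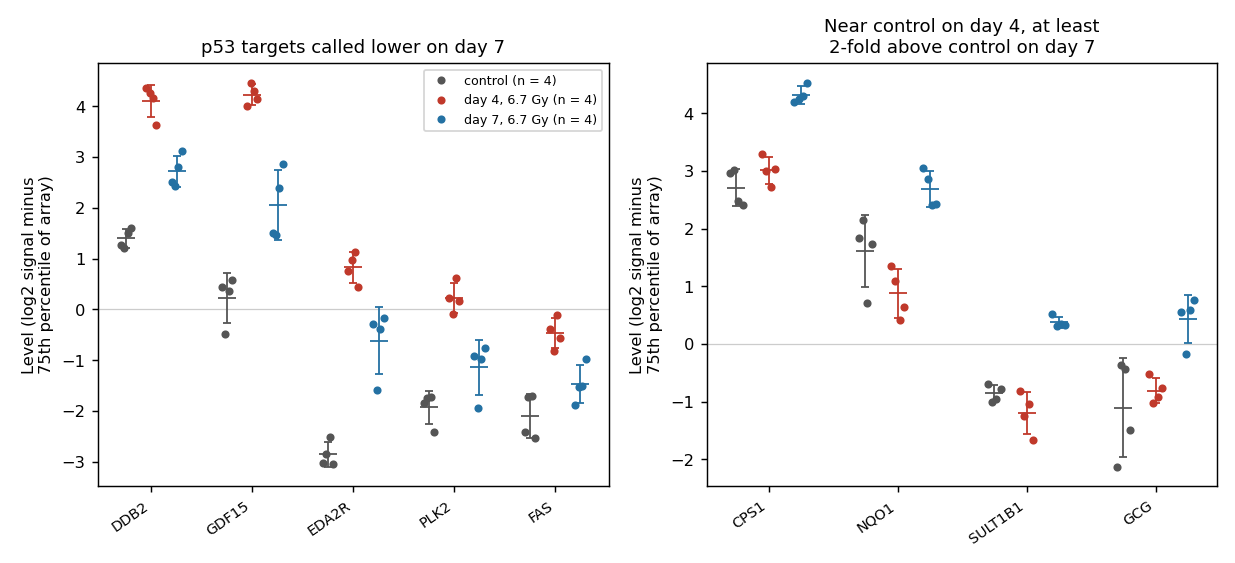
Level (log2 signal minus the 75th percentile of the array) on each of 12 arrays, n = 4 per group, with mean and SD. Left, the 5 p53 targets called lower on day 7, whose day 7 means lie between those of control and day 4; right, 4 called genes at least 2-fold above control on day 7 and less than 2-fold from it on day 4.

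Lists of mature epithelium held few calls, and of all genes tested 1.72% were called. None of 19 brush border genes, 15 fat absorption genes or 8 goblet cell genes was called, with medians of 0.29, 0.20 and 0.01. VIL1, the actin-bundling protein of microvilli, changed by 1.16 (adjusted p = 0.0596) and was called in 8 of 27 settings. MOGAT2, of fat re-esterification, changed by 0.68 (adjusted p = 0.0458). With 1 array left out, 0 to 2 brush border genes were called higher and 0 to 1 lower. Of the brush border genes 18, and of the fat absorption genes all 15, were well above background on all 4 arrays of both days. None of 9 proximal small bowel genes was called. PIGR, which carries IgA across the epithelium, rose by 1.25 (adjusted p = 0.0486). PYY, a hormone of the distal gut, rose by 1.23 (adjusted p = 0.0478), with groups overlapping and 3 of 4 day 4 arrays well above background, and SLC51B, a bile acid exporter subunit, by 1.04 (adjusted p = 0.013). Of 6 distal small bowel genes tested, PYY and SLC51B were above 0 and 4 were below, with a median of -1.05, which ran from -1.37 to -0.0079 over the settings and was nearest 0 with a common floor. With that floor PYY changed by 0.05 and was not called, and PIGR and GCG lost the call (adjusted p = 0.0706 and 0.0556). PYY was called in 1 of 8 fits with 1 array left out, PIGR in 2 and SLC51B in 5, and all of them lost the call within the first scan day. SLC51B also lost it with quantile normalization, with the percentile over probes detected on all arrays and with array weights. PIGR and GCG lost it with slide (adjusted p = 0.062 and 0.0753) and with scan day as a fixed block, and PYY with scan day (adjusted p = 0.053). FABP6, the ileal bile acid carrier, named after its values were seen, changed by -2.87 and was not called (adjusted p = 0.203).

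Of 26 G2/M and mitosis genes none was called, and all changed by more than 0, as did 6531 of all 11902 genes tested. The list median was 0.50 and ran from 0.32 without day 4 replicate 3 to 0.75 with slide as a fixed block. Without day 4 replicate 3 or without day 7 replicate 2, 25 of the 26 were above 0, and 1 or 2 genes were called in some settings, 2 with scan day as a fixed block, with array weights or with only these 8 arrays and the controls. The list stood 0.43 above control on day 4 and 0.99 on day 7. CDC25C, the phosphatase that starts mitosis, changed by 1.20 (adjusted p = 0.0517) and was called in 9 of 27 settings. Of 22 DNA replication genes none was called, 12 were above 0, and the median was 0.04. Of 9 crypt base genes none was called, and CD44, by its brightest probe, changed by -0.71 (adjusted p = 0.0351) and by another fell by 1.00 (adjusted p = 0.00815).

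None was called of 11 sterol synthesis, 11 iron handling, 10 tight junction, 17 heat shock and chaperone, 8 B and plasma cell, 6 mast cell or 2 platelet genes, against 1.72% of all genes tested. The members named are those with the smallest p of those reported in each list. They were FDFT1, squalene synthase, at 0.47, ACO1, which controls iron-regulated transcripts, at 0.86, and CLDN3, a claudin, at 0.86. The adjusted p of these was 0.12, 0.011 and 0.0051. In the other lists there were HSPB8, a small heat shock protein, at -1.44 (adjusted p = 0.123), FCER2, the low-affinity IgE receptor, at -1.04 (adjusted p = 0.231), KIT, the receptor of mast cells, at -0.58 (adjusted p = 0.236) and TREML1, of platelets, at 0.33 (adjusted p = 0.652), which was well above background on 2 of 4 day 4 arrays.

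Some genes differed from control on both days and were not called between them. Of 6 genes of metallothioneins and zinc export none was called between the days, with a median of -0.06, while the median member stood 2.67 above control on day 4 and 2.61 on day 7. SLC30A10, a manganese exporter, stood apart at -1.69 from control on day 4 (adjusted p = 0.012) and -0.87 on day 7 (adjusted p = 0.392). HBB, the beta chain of adult hemoglobin, read 1.54, 2.14, 3.22 and 3.78 in controls, -3.66, -3.86, -5.52 and -3.95 on day 4 and -6.47, -4.72, -4.28 and -6.51 on day 7, every irradiated array below every control. It was well above background on 3 day 4 arrays and 2 day 7 arrays, so the size of its fall from control and any difference between the days have only a bound there.

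After 7.4 Gy, on other arrays, the same comparison of days called 463 probes (1.64%). Of the 436 called after 6.7 Gy, 428 (98.2%) changed in the same direction after 7.4 Gy, as did 72.2% of all probes tested. The 138 probes called at both doses were 31.7% of those after 6.7 Gy and 29.8% of those after 7.4 Gy, all in the same direction. DDB2, GDF15 and GSTA1 changed by -1.23, -2.26 and 2.25 after 7.4 Gy (adjusted p = 0.00237, 0.00161 and 0.0016). SULT1B1 changed by 0.17 there (adjusted p = 0.782) and DNASE1 by -0.28 (adjusted p = 0.809). The test of the difference between doses called 0 probes in limma, with a smallest adjusted p of 0.9996, and 271 probes had an unadjusted p under 0.05 and a 2-fold difference. That no difference was called does not show that the doses acted alike.

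**Figure D5:**
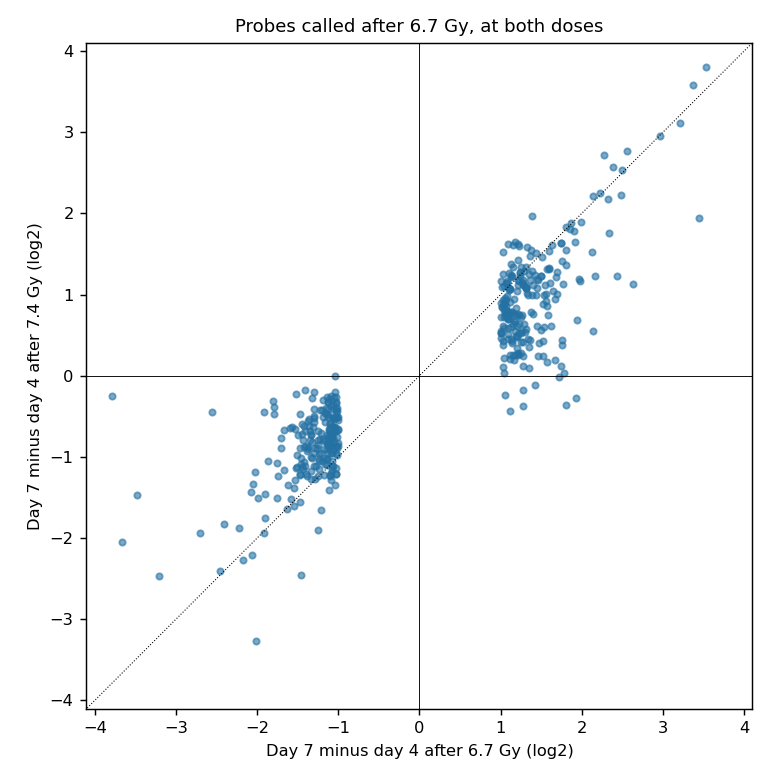
Change from day 4 to day 7 (log2) after 6.7 Gy (x axis) and 7.4 Gy (y axis) of the 436 probes called after 6.7 Gy, 1 point per probe, 4 arrays per group. The dotted line marks equal changes, and 428 of the 436 points have the same sign at both doses.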

How the data were processed

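RNA of jejunum tissue was hybridized to 1-color Agilent rhesus arrays, 24 arrays in 7 groups on 6 slides. Per the file headers, the authors extracted background-subtracted intensity values with Agilent Feature Extraction 11.0.1.1 on a grid annotated on the build rheMac2. The deposited normalized table holds log2 values. Of these, 99.95% matched, within 0.01, the levels used here minus each probe's median over the 24 arrays, which settles its scale, centring and direction; its column medians ran from -0.10 to 0.20. A further deposited table holds the signal values before normalization.

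Spots of a probe were averaged on the log2 scale, control spots were dropped and non-uniform spots were dropped where another spot remained, which left 43603 probes. From each log2 signal the log2 of that array's 75th percentile (505 to 1069) was subtracted. The 28168 probes detected well above background throughout any 1 group were tested. The authors' table named 23674 probes, RefSeq another 121, and 19808 stayed unnamed. The brightest probe stood for a gene in a list. limma 3.58.1 (R 4.3.3) was fitted with lmFit and eBayes to 7 groups on all 24 arrays, with Benjamini-Hochberg adjustment over the tested probes. Calls required an adjusted p below 0.05 together with a 2-fold change. On simulated data of this comparison with 28168 probes, 77% of changes of 1.5 and 99% of changes of 3 on the log2 scale were called. There, 7 calls fell on unchanged probes. The simulated noise was independent between arrays and held no slide or scan-day effects, so these rates may not hold for the real arrays. Each limma p-value sets a difference against the spread between arrays, 1 per animal, pooled over the 7 groups. That spread also holds any effect of slide or scan day.

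The members, the 36 gene lists and the rules were chosen with earlier results of these data known. Named genes are the 8 largest rises and falls among called probes that were well above background on all 8 arrays without overlap, the 3 smallest p in each class against control by the same conditions, and in each list up to 4 called members, or else the 1 with the smallest p; some items are not reported here, and the next by each rule took their place. Same-numbered replicates did not deviate together, so no pairing was used. The alternatives were other background corrections and scalings, filters, arrays, blocks, variance models, the methods' t-test, 1 probe per gene and the authors' table. Within the first scan day and a common floor of -1.85 were chosen after seeing the data. The scanner files held no mean signal, so normexp (offset 50) used the median signal.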

Additional observations from a re-analysis of the deposited data

Results flagged for a closer look

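In 207 groups of 4 arrays, 1 for each named probe and group, 9 held an array whose gap to the nearest other was, as a share of the range, above Dixon's critical value; chance flags about 1 in 20 groups. On day 4, replicate 3 stood apart for LOC711061 (3.86, the others 3.11 to 3.2), PYY (-2.81, the others -3.61 to -3.53) and HBB (-5.52, the others -3.95 to -3.66). Replicate 1 of day 4 stood apart for THBS1 (-3.03, the others -1.85 to -1.62) and A2M (3.25, the others 4.23 to 4.42). On day 7, replicate 2 stood apart for EDA2R (-1.59, the others -0.383 to -0.178). In controls, replicate 4 stood apart for PLK2 (-2.42, the others -1.84 to -1.72) and GATA4 (-1.08, the others -1.84 to -1.73), and replicate 1 for FN1 (2.43, the others 3.09 to 3.16).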

How the results depend on the processing

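Against 436 probes called (224 higher, 212 lower), there were 275 with normexp background correction (123 lower), 248 without a filter on dim probes (132 higher, 116 lower), 149 with only the 8 arrays (95 and 54), 24 by the methods' t-test (20 and 4) and 232 with 1 probe per gene (107 and 125). There were 928 with slide as a fixed block (360 and 568), 658 as a random block (346 lower), 675 with array weights (344 and 331), 363 lower without slides 4 and 5 and 335 lower with scan day as a fixed block. Within the first scan day there were 220 (112 and 108) and with a common floor 217 (123 and 94). With the percentile taken over probes detected on all arrays, 34.8% of calls were higher, against 51.4%. The called members of the gene lists, 33, became 15 without a filter, 9 with only the 8 arrays, 51 with slide as a fixed block, 0 by the t-test, 20 within the first scan day and 21 with the floor. The percentage back within 2-fold of control, 49.1%, was 32.3% and 39.7% with slide and scan day as fixed blocks, 43.3% with array weights, 66.7% by the t-test and 60.9% within the first scan day. The percentage newly at least 2-fold from control, 5.05%, was 2.86% without slides 4 and 5 and 2.37% with slide as a fixed block. The test between doses called 2 probes within the first scan day and 0 in each other setting run. Leaving out 1 array gave 169 to 741 calls, 115 to 315 higher, 54 to 426 lower, 9 to 43 list members, 39.0% to 56.3% returned and 3.04% to 9.01% newly changed. The cause of these differences was not tested. TREML1, 0.33 and not called, ran from -0.038 without day 4 replicate 2 to 0.69 without day 4 replicate 3, and was -0.51 within the first scan day. With the replicate block 427 probes were called; same-numbered arrays correlated at -0.02, -0.00168, -0.08 and 0.13, and the 2 pairs that shared a slide at 0.211 and 0.201, the highest of 16. Of 48 called named probes, 48 kept their direction in each setting with a value, 18 kept the call without each array and 3 in each setting. Blocking by position was not run, since position and day cannot be told apart. The number of arrays limits the precision.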
